A study of Mus musculus with 16 samples.

Results

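Persistent was compared with transient antigen in CD4+ T cells that met their peptide on dendritic cells left resting. The comparison takes the arrays titled long dox, PBS (3) and short dox, PBS (3), which are 6 of the 16 arrays of the study. Each array measured the RNA of AND T cells, which carry a transgenic T cell receptor for a peptide of moth cytochrome c, sorted as CD4+CD90.1+ from subcutaneous lymph nodes 60 h after transfer. The other 10 arrays cover recipients without antigen and recipients given FGK45.5, a stimulatory antibody against CD40. They enter the fit, and the 3 no-antigen PBS arrays are quoted as a reference level.

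The labels give the B10.BR background and an age of 6 to 8 weeks, and lymph node cells from AND donors bearing CD90.1 were given intravenously on day 0. Recipients of both compared groups were Ii-rTA+ TIM+ and received PBS intraperitoneally on day −1. The rTA activator, switched on by doxycycline, stands under the promoter of the invariant chain (Ii), a gene of cells that present antigen on class II molecules, and it drives expression of the peptide from the TIM transgene. Transient antigen meant doxycycline from day −1 to day 0, and persistent antigen meant doxycycline from day −1 to day 3. The groups therefore differed in exposure to the drug as well as in antigen, and these cannot be told apart. The no-antigen recipients were Ii-rTA- TIM+, so they lacked the activator. They are titled no dox, but the treatment notes of replicate 3 list doxycycline. For replicates 1 and 2 no treatment notes are given, so their treatment is known from the title alone. The labels do not give the number of animals behind an array or say that arrays came from separate animals, so a p-value speaks of the spread among these samples alone, which may be technical.

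A resting naive T cell is kept quiescent and recirculating by a set of transcription factors, survival proteins and homing receptors. Contact with antigen shuts this set down, and sustained contact drives growth, DNA replication, division and the acquisition of effector molecules such as cytokines and granule proteases. Replication genes are classical targets of E2F factors, and many mitotic genes carry the CHR element, to which the DREAM and MuvB complexes bind.

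Levels are given as log2(intensity + 1) of 1 probe set per gene, differences as persistent minus transient on this scale, and triplets of values in the order of replicates 1, 2 and 3. A gene is said to rise or fall where the adjusted p in limma (Benjamini-Hochberg over 18194 genes) was under 0.05. The model was fitted without and with the replicate number as a block. The adjusted p comes from the model without the block unless the block is named. The largest component of variance among the 6 arrays, 50.5% of the total, set both replicate 2 arrays (scores of −47.8 and −53.1) apart from the other 4 (13.3 to 39.4). The next, 31.0%, separated the persistent arrays (−34.4 to −21.5) from the transient arrays (21.2 or more). Replicate numbers also went with the sex-linked genes: all 6 replicate 1 arrays of the study held Eif2s3y, a Y-linked gene, at 8.86 to 9.93, and the 10 others at 2.61 to 3.09. Each number is present in both compared groups.

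Defining T cell genes were well measured: Cd3d stood at 11.63 under transient and 11.07 under persistent antigen, and Cd4, used for the sort, at 7.73 and 7.33. Among markers of other cells, 0 of 20 genes of dendritic cells and macrophages passed with or without the block, and their summed log2 level was 92.4 to 98.5 in the transient arrays and 94.1 to 98.2 in the persistent arrays. Among 11 B cell genes none passed without the block, and with it Cd22 rose by 0.86 and Bank1 fell by 0.66. Their summed level was 49.6 to 53.4 and 49.5 to 55.0. With the block Xbp1 of 6 plasma cell genes rose (0.69; summed level 29.0 to 31.2 and 29.0 to 29.8), as did Klrk1 of 9 NK and CD8 T cell genes (0.95; 39.0 to 40.2 and 39.4 to 41.8). Elane of 9 granulocyte genes (−0.45) and Pecam1 of 10 genes of stroma and endothelium (−0.59) fell with the block, and 0 of 4 erythrocyte genes passed. Against the median probe set, which was 4.37, 14 of the 20 dendritic cell and macrophage genes lay above it under transient and 13 under persistent antigen, among them Cst3 (6.33 and 6.52), H2-Aa (6.06 and 6.49) and Lyz2 (5.61 and 6.06), while Itgax stood at 4.45 and 4.34. Of the 11 B cell genes 5 and 4 lay above it, with Cd22 at 7.14 and 8.00 and Cd79a at 3.68 and 3.39. Of the 9 NK and CD8 T cell genes 4 did in both groups, and Ncr1 stood at 3.74 and 3.82. The part of such cells in the differences was not tested. In sorted bulk RNA, fewer cells with a transcript and less of it per cell cannot be told apart.

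Under persistent antigen the transcripts of many DNA replication and mitosis genes were higher, as were those of Gzmb, Gzmk, Il21 and Prdm1. Transcripts of many naive T cell genes were lower. Without the block 169 genes passed, 0.929% of those tested, with 110 higher (0.605%) and 59 lower (0.324%) under persistent antigen. In all 169 the 3 persistent arrays lay outside the range of the 3 transient arrays, as they did in 17.5% of all genes, and 156 differed by at least 2-fold. In 34 of them the lower group lay under the median probe set. The 10 genes just inside the threshold had differences of 0.58 to 2.94 in size, and the 10 just outside, with adjusted p from 0.0507 to 0.0513, differences of 0.81 to 2.33. With the replicate block 2080 genes passed (11.4%), of which 1090 were higher (5.99%) and 990 lower (5.44%), and all 169 were among them. Of the 2080, 641 differed by at least 2-fold, 426 upward and 215 downward. The median difference over all genes was −0.05. The count without the block rested on single arrays: it was 37 without persistent replicate 1, 38 without persistent replicate 3, 42 without transient replicate 3 and 60 without transient replicate 2. With the block it was between 1264 and 1638 whichever array was left out, lowest without persistent replicate 3 and next lowest, 1335, without transient replicate 2.

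The largest increase was in Gzmb, the granule protease granzyme B. Its level was 4.51, 4.14 and 4.71 under transient antigen and 9.64, 8.05 and 10.07 under persistent antigen. All 3 transient arrays lay within the no-antigen range (4.19, 4.04 and 5.67), and all 3 persistent arrays lay far above both. The difference was 4.8 (SE 0.66, adjusted p = 0.00417). Il21, the cytokine typical of T cells that help B cells, measured 4.50, 4.13 and 3.59 under transient and 9.20, 7.44 and 9.34 under persistent antigen, against 3.98, 3.82 and 4.39 without antigen. The difference was 4.59 (SE 0.60, adjusted p = 0.00312), again with no overlap. In both genes persistent replicate 2 was the lowest of its group.

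**Figure D1:**
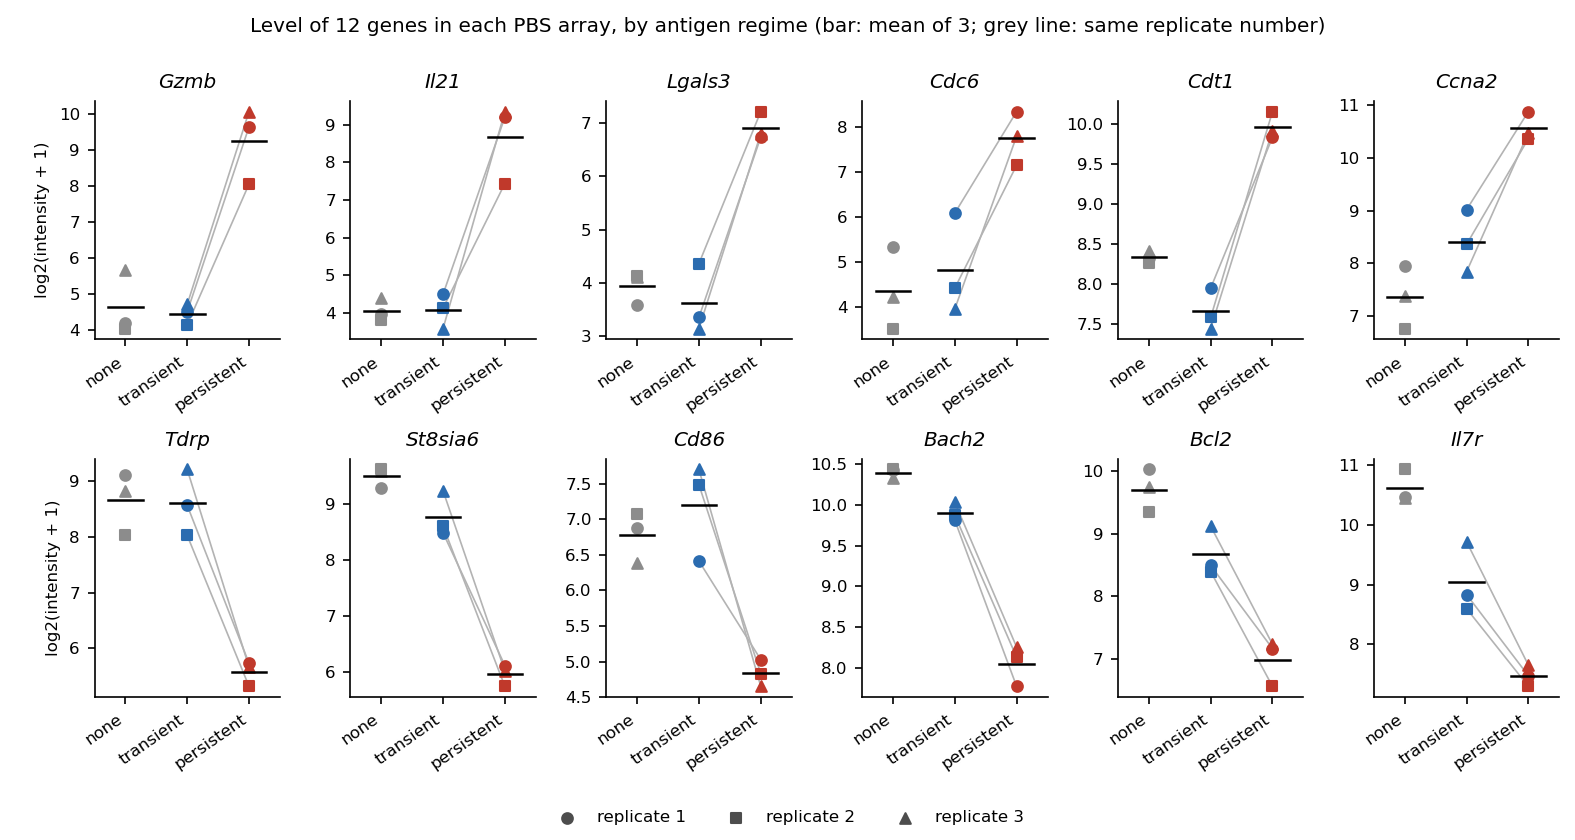
Level of 12 genes, as log2(intensity + 1), in the 3 no-antigen, 3 transient and 3 persistent PBS arrays; bars are means of 3 arrays and grey lines join arrays of the same replicate number. In each gene the persistent arrays lie apart from the transient arrays, upward in the top row (Gzmb by 4.8) and downward in the bottom row (Tdrp by −3.03).

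Emp1, a tetraspan membrane protein, stood at 3.10, 2.56 and 3.66 under transient and 7.47, 5.94 and 7.39 under persistent antigen (difference 3.83, adjusted p = 5.81e-04). Plek, the protein kinase C substrate pleckstrin, went from 3.87, 3.46 and 3.68 to 7.84, 6.31 and 7.83 (3.66, adjusted p = 0.00226). Lgals3, the sugar-binding lectin galectin-3, measured 3.35, 4.36 and 3.14 (transient) and 6.74, 7.22 and 6.81 (persistent) (3.31, adjusted p = 4.44e-04). In these 3 genes the transient arrays stayed near the no-antigen means of 3.05, 3.87 and 3.94, and no array of either group reached the other. Of 24 annexins, S100 proteins and their relatives, 3 rose without the block (0.605% of all genes did). With it 9 rose and 2 fell (5.99% and 5.44% of all genes did). Without the block 1 rose in the absence of persistent replicate 3. S100a4 rose by 2.56 (adjusted p = 0.0113) and Anxa2, which links membranes to actin, by 2.21 (adjusted p = 0.0160). S100a6 (2.96, adjusted p = 0.00115) and Lgals1 (1.44, adjusted p = 0.00856) passed with the block only. Anxa2 measured 5.11, 5.07 and 5.91 without antigen, 8.46, 7.84 and 7.57 with transient and 10.51, 10.05 and 9.93 with persistent antigen, a level that was ordered by exposure in every replicate.

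Genes of origin licensing and the replication fork, which load and run the replicative helicase and polymerases, were higher almost as a body. Of 55 measured, 17 rose without the block and 47 with it, against 0.605% and 5.99% of all genes, and none fell. The median difference was 1.56 (1.44, 1.51 and 1.68 within replicates 1, 2 and 3), and in 45 genes the 3 persistent arrays lay above the 3 transient arrays, as they did in 6.06% of all genes. With 1 of the 6 arrays left out, 44 to 48 rose with the block and 6 to 20 without it, with 6 or 7 in the absence of transient replicate 2 or 3 or persistent replicate 1 or 3. With replicates 1 and 3 only, 48 rose with the block and 35 without it.

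Cdc6, which recruits the MCM helicase to origins, measured 6.08, 4.42 and 3.95 under transient and 8.33, 7.14 and 7.79 under persistent antigen (2.94, SE 0.64, adjusted p = 0.0467). Its partner in licensing, Cdt1, measured 7.95, 7.58 and 7.45 (transient) and 9.84, 10.16 and 9.92 (persistent) (2.31, SE 0.24, adjusted p = 5.81e-04). Replicate 1 of Cdc6 was high in both groups, whereas Cdt1 was tight in each. Without antigen Cdt1 stood at 8.33, 8.27 and 8.41, above its transient level in every replicate. Gins1, a subunit of the active helicase, rose by 2.18 (adjusted p = 0.0402). Increases were also found for Rfc4, of the clamp loader (2.17, adjusted p = 0.0465), for Clspn, the replication checkpoint mediator claspin (2.17, adjusted p = 0.00511), and for Pole, the catalytic subunit of polymerase epsilon (2.16, adjusted p = 0.00284). Dscc1, part of the alternative clamp loader that serves sister chromatid cohesion, rose by 2.83 (adjusted p = 0.00636), and Lrr1, a receptor subunit of a cullin ubiquitin ligase, by 2.48 (adjusted p = 0.0377).

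The promoters of this group were searched for E2F letters. The stretches below run from 120 bases before to 20 after the start in RefSeq (GRCm38.p6) for the 3 members with the largest increases that hold such letters there. They are written 5′ to 3′ on the strand of the gene, and capitals mark the match. They show where the letters sit: Pole2, a subunit of polymerase epsilon (chr12:69228171-69228310, minus strand), Rfc3, of the clamp loader (chr5:151651189-151651328, minus strand), and Mcm6, of the helicase (chr1:128359686-128359825, minus strand).
Pole2: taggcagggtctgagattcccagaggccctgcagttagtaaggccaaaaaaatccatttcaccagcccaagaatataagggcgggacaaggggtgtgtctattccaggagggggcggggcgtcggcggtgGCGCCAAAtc
Rfc3: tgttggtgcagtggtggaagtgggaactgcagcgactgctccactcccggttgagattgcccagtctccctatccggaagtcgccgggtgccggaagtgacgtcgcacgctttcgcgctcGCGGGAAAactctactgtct
Mcm6: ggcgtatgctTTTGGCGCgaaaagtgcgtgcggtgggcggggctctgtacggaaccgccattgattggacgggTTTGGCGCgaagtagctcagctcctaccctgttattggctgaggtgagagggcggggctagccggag

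Mean levels went from 6.46 ± 0.86 to 8.58 ± 0.84 for Pole2, from 4.48 ± 0.06 to 6.42 ± 0.38 for Rfc3 and from 7.23 ± 0.84 to 8.87 ± 0.59 for Mcm6 (SD, n = 3 each). Rfc3 passed without the block (adjusted p = 0.00509), and Pole2 (adjusted p = 5.44e-07) and Mcm6 (adjusted p = 0.00066) passed with it. The letters searched were TTTCCCGC and TTTGGCGC on either strand, in windows of 250 bases before to 50 after each start. Of 46 replication genes with a window, 14 (30.4%) held them, as did 5 of 23 DNA repair genes (21.7%) and 2 of 52 mitotic genes (3.85%). Among all 14453 measured genes with a window the share was 2.77%, and among all 32851 windows 1.56%. Of the genes that rose with the block 8.32% held them, and of those that fell 1.86%. A match describes the letters in this window and not a bound factor.

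Mitotic genes moved as widely. Of 64 genes of mitosis, kinetochore and cytokinesis, 13 rose without the block and 60 with it, against 0.605% and 5.99% of all genes. The median difference was 1.72 (1.5, 1.62 and 2.15 by replicate), and in 51 genes the persistent arrays all lay above the transient arrays, against 6.06% of all genes. Only Smc4, a condensin subunit, fell with the block (−0.48, adjusted p = 0.0439). When each array was left out in turn, 56 to 60 rose with the block and 0 to 18 without it. Without the block none rose when transient replicate 3 or persistent replicate 1 was left out, and 2 rose without transient replicate 2 or persistent replicate 3. With replicates 1 and 3 only, 59 rose with the block and 39 without it.

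Ccna2, cyclin A2, measured 9.02, 8.36 and 7.84 under transient and 10.88, 10.37 and 10.48 under persistent antigen (2.17, SE 0.42, adjusted p = 0.0263), with 7.94, 6.76 and 7.38 without antigen. The persistent arrays lay within a narrow band, and in each replicate the transient array lay between the no-antigen and the persistent array. Cenpk, of the inner kinetochore, went from 6.02, 5.63 and 5.17 to 8.46, 7.60 and 8.91 (2.72, adjusted p = 0.0103), and Cenph rose by 2.07 (adjusted p = 0.0160). The spindle checkpoint kinase Ttk rose by 2.12 (adjusted p = 0.0377), the spindle motor Kif11 by 1.94 (adjusted p = 0.0457) and the mitotic kinase Pbk by 2.74 (adjusted p = 0.0210).

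**Figure D2:**
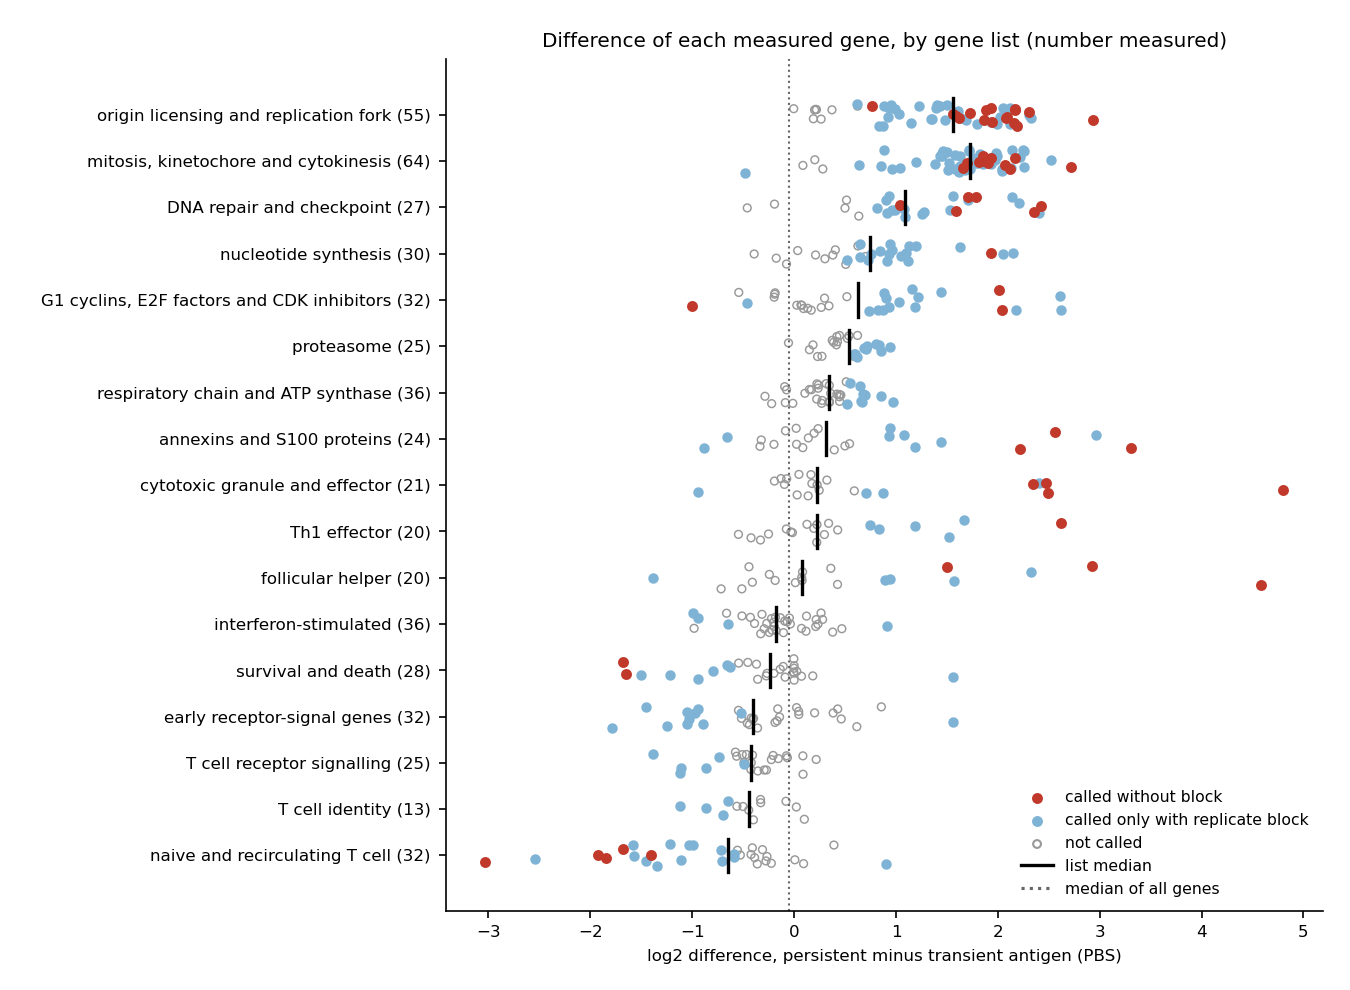
Log2 difference, persistent minus transient antigen with PBS, of each measured gene in 17 lists; red points passed without the replicate block, blue points only with it and open points neither, and black bars are list medians. Replication (median 1.56) and mitosis (1.72) lie to the right of the median of all genes (−0.05, dotted) and naive T cell genes (−0.65) to the left.

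The CHR letters, TTTGAA on either strand, were searched in the same windows. The stretches of the 3 mitotic genes with the largest increases that hold them follow, to show their place close to the start. They are Espl1, the protease separase (chr15:102296173-102296312, plus strand), Cdk1, the mitotic kinase (chr10:69352893-69353032, minus strand), and Cdca5, the cohesion factor sororin (chr19:6084977-6085116, plus strand).
Espl1: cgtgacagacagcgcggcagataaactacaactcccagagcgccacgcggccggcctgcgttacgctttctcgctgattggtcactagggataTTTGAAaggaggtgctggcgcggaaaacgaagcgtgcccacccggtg
Cdk1: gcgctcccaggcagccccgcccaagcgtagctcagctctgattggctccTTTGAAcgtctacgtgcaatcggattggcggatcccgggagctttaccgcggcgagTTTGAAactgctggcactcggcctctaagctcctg
Cdca5: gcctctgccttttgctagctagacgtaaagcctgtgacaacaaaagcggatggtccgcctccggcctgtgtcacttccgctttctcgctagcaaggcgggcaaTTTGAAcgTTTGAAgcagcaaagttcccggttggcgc

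Espl1 went from 4.49 ± 0.97 to 6.76 ± 0.62, Cdk1 from 7.84 ± 0.78 to 10.09 ± 0.33 and Cdca5 from 7.53 ± 0.77 to 9.74 ± 0.32 (SD, n = 3 each), and all 3 passed with the block only (adjusted p = 2.24e-07, 7.31e-05 and 1.6e-05). Of 52 mitotic genes with a window 35 (67.3%) held TTTGAA, against 15.7% of all measured genes and 17.9% of all windows. The share was 19.6% for the replication list and 14.8% for the naive T cell list. The matches of mitotic genes gathered at the start: 22.8 per 100 windows lay in the first 25 bases after it and 19.3 in the last 25 before it, where all measured genes had 1.01 and 0.80. CCAAT on either strand, the letters of NF-Y sites, stood in 71.2% of mitotic, 60.9% of replication and 42.0% of all measured genes. The 3 motifs were counted separately, and overlap between them was not removed.

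**Figure D3:**
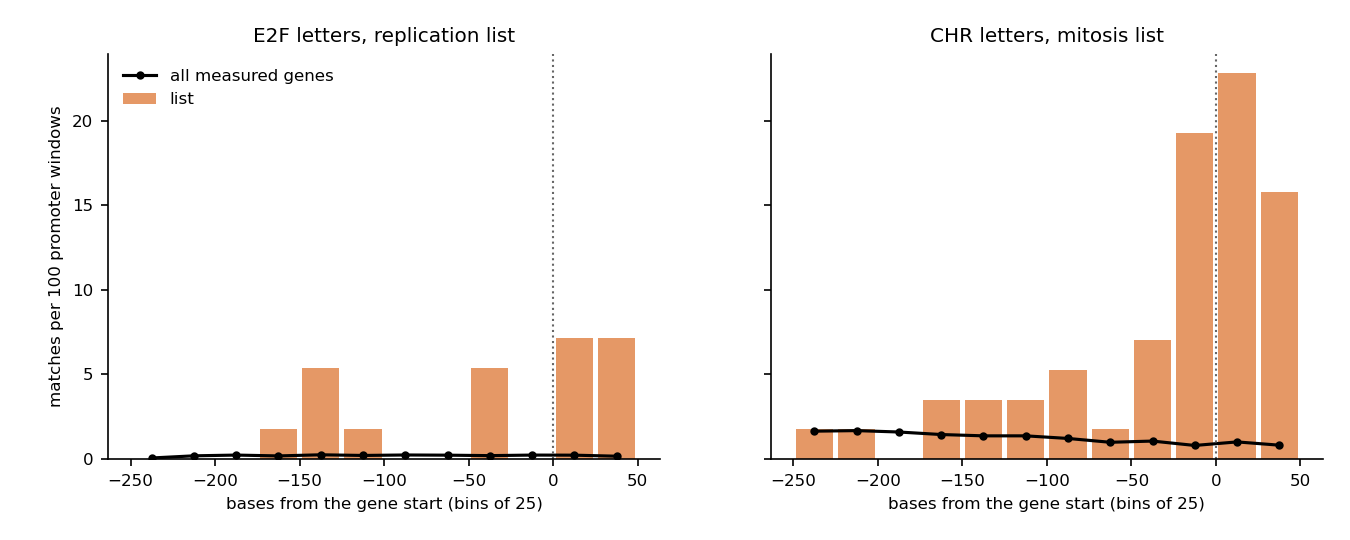
Matches per 100 promoter windows by distance from the gene start, in bins of 25 bases, for E2F letters in the replication list and CHR letters in the mitosis list (bars) and for all measured genes (line). CHR letters of mitotic genes reach 22.8 per 100 windows just after the start, where all genes have 1.01.

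The supply and control of S phase moved in the same direction, with fewer genes past the threshold. Of 27 DNA repair and checkpoint genes 6 rose without the block and 22 with it (median 1.09), against 0.605% and 5.99% of all genes. Without the block 1 rose in the absence of transient replicate 2 or 3 or persistent replicate 1 or 3, and with it 20 to 23 rose whichever array was left out. They included Brca1, of homologous recombination (2.42, adjusted p = 0.0419), the chromatin remodeller Hells (1.71, adjusted p = 0.00461), the helicase Blm (1.79, adjusted p = 0.0465) and the nuclease Exo1 (1.59, adjusted p = 0.0318). Of 30 nucleotide synthesis genes 1 rose without the block, thymidine kinase Tk1 (1.93, adjusted p = 0.0288), and 19 with it (median 0.74). Tk1 missed the threshold without the block in the absence of transient replicate 2 or 3 or persistent replicate 1 or 3. Rrm1 and Rrm2, the subunits of ribonucleotide reductase, differed by 2.05 (adjusted p = 5.98e-05) and 2.15 (adjusted p = 5.24e-04), both with the block only. Rrm2 measured 10.65, 8.24 and 9.08 (transient) and 11.96, 10.65 and 11.81 (persistent), so transient replicate 1 reached the persistent range although every replicate pair rose.

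Among 32 G1 cyclins, E2F factors and CDK inhibitors, 2 rose and 1 fell without the block, and 16 rose and 2 fell with it. Over all genes 0.605% rose and 0.324% fell without the block, and 5.99% rose and 5.44% fell with it. Ccne1, cyclin E1, measured 7.72, 6.92 and 7.55 under transient and 9.61, 9.19 and 9.43 under persistent antigen (2.01, adjusted p = 0.0202). Cdk6, a G1 kinase, went from 5.67, 6.11 and 7.03 to 8.20, 8.21 and 8.50 (2.04, adjusted p = 0.0163). Neither gene overlapped between the groups. Without the block none of the list rose when transient replicate 2 or persistent replicate 1 or 3 was left out, and 1 rose without transient replicate 3. Ccnd2, a D-type cyclin, went the other way, from 9.83, 10.30 and 10.08 to 9.12, 9.09 and 9.0 (−1.0, adjusted p = 0.0387). With the block the repressor E2f7 (2.62, adjusted p = 1.51e-05) and Ccne2, cyclin E2 (2.61, adjusted p = 2.49e-05), also rose.

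A minority of effector genes changed. Of 21 cytotoxic granule and effector genes 4 rose without the block and 7 with it, against 0.605% and 5.99% of all genes. With the block 1 fell, and the median of the list was 0.23. Without the block 2 rose when transient replicate 2 or 3 or persistent replicate 1 or 3 was left out. Besides Gzmb, Gzmk rose from 4.76, 4.67 and 4.31 to 7.58, 6.13 and 7.06 (2.34, adjusted p = 0.00384). Nkg7, a granule membrane protein, went from 8.15, 7.39 and 7.75 to 10.18, 10.32 and 10.21 (2.47, adjusted p = 0.0158), and Plac8 from 8.40, 6.67 and 6.87 to 9.59, 9.83 and 10.01 (2.5, adjusted p = 0.0160). Nkg7 and Plac8 already stood above their no-antigen means (6.44 and 5.21) under transient antigen, whereas Gzmb and Gzmk did not. Gzma rose with the block only, from 4.92, 4.42 and 6.06 to 6.75, 6.22 and 9.65 (2.41, adjusted p = 4.88e-05), with replicate 3 high in both groups. Fasl, the death ligand, fell with the block (−0.94, adjusted p = 0.0105). Of the 9 NK and CD8 T cell markers Klrk1 alone passed, with the block, and the part of such cells in the granule genes was not tested.

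Follicular helper genes, of the cells that support B cells in germinal centres, changed in part. Of 20, 3 rose without the block (Il21, Tox2 and Cxcr5) and 7 with it, against 0.605% and 5.99% of all genes. Il6st fell with the block, and the median of the list was 0.08. Tox2, a chromatin factor of follicular helper cells, went from 7.75, 7.70 and 8.79 to 10.89, 10.60 and 11.52 (2.92, adjusted p = 0.00734). Cxcr5, the receptor that leads into B cell follicles, went from 3.99, 4.04 and 4.56 to 5.5, 5.89 and 5.69 (1.5, adjusted p = 0.00594). The transient arrays of Cxcr5 lay near the no-antigen arrays (4.12, 4.09 and 4.38), and all persistent arrays lay above both. Maf, which drives Il21, measured 7.69, 7.01 and 7.61 (transient) and 10.17, 9.36 and 9.77 (persistent) and passed with the block (2.33, adjusted p = 1.51e-05; 0.0513 without it). Bcl6, the master regulator of these cells, rose with the block by 0.89 (adjusted p = 0.00574), yet its persistent arrays (6.86, 6.93 and 7.11) stayed under the no-antigen arrays (7.47, 7.19 and 7.51) in every replicate.

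Of 20 Th1 genes 6 rose with the block, against 5.99% of all genes. Of these 1, Prdm1, also rose without it, where 0.605% of all genes did. The other 14 passed in neither model, and the median of the list was 0.22. With an array left out, 0 or 1 of the list rose without the block. It was 0 in the absence of transient replicate 2 or 3 or persistent replicate 1. Prdm1, which encodes the repressor Blimp-1 of effector lymphocytes, went from 4.47, 4.37 and 4.25 to 7.65, 6.26 and 7.04 (2.62, SE 0.46, adjusted p = 0.0160). Tbx21, the Th1 regulator T-bet, measured 6.06, 4.67 and 6.37 (transient) and 7.71, 6.34 and 8.07 (persistent) (1.67, adjusted p = 3.61e-04 with the block), and Ifng, interferon gamma, 5.98, 5.23 and 7.86 (transient) and 8.72, 6.02 and 8.91 (persistent) (1.52, adjusted p = 0.0131 with the block). Both genes were lowest in replicate 2 of each group, and each overlapped between the groups while rising within every replicate. Among inhibitory receptors, Havcr2 (1.46, adjusted p = 7.02e-04) and Lag3 (0.67, adjusted p = 0.0461) rose with the block, and Lair1, a collagen receptor, rose without it (1.05, adjusted p = 0.0455). Ikzf3, the lymphoid factor Aiolos, went from 7.87, 8.10 and 8.19 to 9.23, 9.17 and 9.26 (1.16, adjusted p = 0.0202).

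The naive programme was lower. Of 32 genes of naive and recirculating T cells 5 fell without the block and 18 with it, against 0.324% and 5.44% of all genes. Only Gpr183, a receptor for oxysterols that guide cells within lymphoid tissue, rose (0.90, adjusted p = 0.00191 with the block). The median difference was −0.65. Left-out arrays gave 14 to 17 falling with the block and 2 to 5 without it, and replicates 1 and 3 alone gave 19 and 10. Without the block the count was lowest, 2, in the absence of persistent replicate 3, and it was 3 in the absence of transient replicate 3 or persistent replicate 1. With the block it was lowest, 14, in the absence of transient replicate 3.

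Tdrp, the gene with the largest fall, measured 8.57, 8.03 and 9.21 under transient and 5.73, 5.32 and 5.67 under persistent antigen (−3.03, SE 0.33, adjusted p = 8.55e-04). Bach2, a repressor that restrains effector differentiation, went from 9.81, 9.87 and 10.03 to 7.78, 8.13 and 8.26 (−1.85, SE 0.22, adjusted p = 0.00210). In both genes the transient arrays lay much nearer to the no-antigen means (8.66 and 10.39) than to the persistent arrays. Ccr7, which brings naive cells into lymph nodes, went from 8.26, 8.48 and 8.63 to 7.10, 7.25 and 6.79 (−1.41, adjusted p = 0.0163). Dapl1 measured 9.18, 9.11 and 8.85 (transient) and 7.53, 7.02 and 6.80 (persistent) (−1.93, adjusted p = 0.00829), with 8.22, 7.92 and 7.89 without antigen, so that its transient arrays were the highest and its persistent arrays the lowest. Il7r, the receptor for the survival cytokine IL-7, was ordered by exposure in every replicate: 10.46, 10.93 and 10.46 without antigen, 8.83, 8.60 and 9.72 with transient and 7.47, 7.29 and 7.65 with persistent antigen. The persistent against transient difference passed with the block (−1.58, adjusted p = 4.19e-04; 0.0594 without it).

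Survival genes fell on both sides of the balance. Of 28, 2 fell without the block and 8 with it, against 0.324% and 5.44% of all genes. Pmaip1, the death protein Noxa, rose with the block (1.56, adjusted p = 9.64e-05). Bcl2, which blocks cell death, went from 8.49, 8.39 and 9.12 to 7.16, 6.56 and 7.23 (−1.68, adjusted p = 0.0159). Bcl2l11, its death-promoting opponent Bim, went from 10.98, 11.71 and 11.67 to 9.22, 10.34 and 9.85 (−1.65, adjusted p = 0.0369). In neither gene did the groups overlap. Of the list none fell without the block in the absence of transient replicate 3 or persistent replicate 1 or 3, and 1 fell in the absence of replicate 2 of either group. With the block 4 fell without transient or persistent replicate 3 and 5 without transient replicate 2. Hbp1, a repressor of cell cycle entry, narrowly missed without the block (−1.16, adjusted p = 0.0507) and fell with it (adjusted p = 3.09e-05).

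Cd86, a ligand of CD28 and CTLA-4, measured 6.41, 7.49 and 7.70 under transient and 5.03, 4.83 and 4.65 under persistent antigen (−2.36, adjusted p = 0.00284). Its level without antigen was 6.88, 7.08 and 6.39, which also lay above every persistent array. Cd96, a receptor for nectins, went from 8.38, 9.15 and 9.42 to 6.51, 6.90 and 6.96 (−2.19, adjusted p = 0.00511). St8sia6, a sialyltransferase, went from 8.49, 8.61 and 9.24 to 6.12, 5.74 and 6.02 (−2.82, adjusted p = 5.5e-04). With the block 5 more of 20 sialyltransferases and selectin ligand enzymes fell, where 5.44% of all genes did. Tnfrsf25 (−1.28, adjusted p = 0.0455), Lta, the cytokine lymphotoxin alpha (−1.04, adjusted p = 0.0263), and Il27ra (−0.95, adjusted p = 0.0402) fell without the block. The remaining largest falls were in Lypd6b (−2.55), Capn3, a calcium-dependent protease (−2.10), Rflnb (−1.90), Pglyrp2, which cleaves bacterial peptidoglycan (−1.87), Adh1, an alcohol dehydrogenase (−1.79), Vipr1, the receptor for vasoactive intestinal peptide (−1.74), and Macf1, which links actin and microtubules (−1.63). All 7 passed without the block, with adjusted p from 8.63e-04 (Pglyrp2) to 0.0263 (Rflnb).

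Among genes induced early after receptor engagement, those that changed were mostly lower where antigen persisted. Of 32 none passed without the block, and with it 10 fell and only Dusp4, a MAP kinase phosphatase, rose (1.56, adjusted p = 0.00970). Over all genes 5.44% fell and 5.99% rose with the block. Egr3, an early growth response factor, measured 7.48, 8.37 and 7.56 under transient and 6.53, 6.12 and 5.40 under persistent antigen (−1.79, adjusted p = 3.65e-04 with the block), and 9.25, 9.0 and 8.50 without antigen. Its levels thus lay lowest where antigen persisted in each replicate. Nr4a3 (−1.45, adjusted p = 0.00161) and Cd69, an early activation marker (−0.97, adjusted p = 0.00915), fell with the block and followed the same order of group means. Of 25 receptor signalling genes 6 fell with the block and 0 without, among them Trat1 (−1.38, adjusted p = 5.24e-04) and Rasgrp1, which activates Ras (−1.11, adjusted p = 2.19e-04). Of 13 T cell identity genes Cd5 (−1.12), Thy1 (−0.86), Bcl11b (−0.69) and Cd6 (−0.64) fell with the block. Without transient replicate 2 or persistent replicate 3, 3 signalling and 2 identity genes fell with the block, and without transient replicate 3, 3 and 3. Thy1 encodes CD90, one of the antigens the cells were sorted on. The summed level of the CD4 T cell markers was 121 to 124 in the transient and 114 to 119 in the persistent arrays, and the part of this in the other differences was not tested.

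Metabolic genes passed with the block only, apart from Pdk1, an inhibitor of pyruvate dehydrogenase, which fell (−1.15, adjusted p = 0.0252). Of 25 proteasome subunits 10 rose with the block (median 0.54), for example Psmd1 (0.94, adjusted p = 3.10e-04). The proteasome count was 3 without transient or persistent replicate 1 and 6 without transient replicate 2 or persistent replicate 3, and it was 17 with replicates 1 and 3 only. Of 36 genes of the respiratory chain and ATP synthase 9 rose with the block (median 0.35), and of these Sdhd, of succinate dehydrogenase, rose by 0.97 (adjusted p = 0.00631). Leaving out any array gave 2 to 5 such genes, fewest without persistent replicate 1. Of 26 glycolysis genes 9 rose and 2 fell with the block, with Tpi1 at 1.65 (adjusted p = 2.28e-04), Hk2, hexokinase 2, at 1.16 (adjusted p = 0.0146) and Pkm at 1.07 (adjusted p = 9.43e-04). With the block 7 of 20 genes of amino acid transport and synthesis rose, as did 5 of 19 chaperones, 10 of 25 genes of ER folding (2 fell), 6 of 29 of sterol and fatty acid synthesis (2 fell) and 3 of 32 of ribosome biogenesis. The share of all genes that rose with the block was 5.99%, and the ribosome biogenesis share, 9.38%, lay near it. Chromatin enzymes split: of 23, 7 rose and 7 fell with the block. The maintenance methyltransferase Dnmt1 rose with the block (1.13, adjusted p = 2.12e-04), and the remodeller Chd3 fell also without the block (−1.32, adjusted p = 0.0125).

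Several genes central to T cell activation passed in neither model. Ctla4, an inhibitory receptor, measured 8.38, 7.27 and 7.77 under transient and 8.24, 7.30 and 7.55 under persistent antigen against 6.68, 5.15 and 5.73 without antigen. Both antigen groups thus lay above the no-antigen arrays in each replicate, and their difference was −0.11 (SE 0.55, adjusted p = 0.973). Icos (0.36, SE 0.52), Pdcd1, which encodes PD-1 (0.43, SE 0.21), Il2ra, the IL-2 receptor alpha chain (0.14, SE 0.17), and Foxp3, the regulatory T cell factor (−0.17, SE 0.24), passed in neither. The same holds for Irf4 (0.49), Myc (−0.46), Nr4a1 (−0.44), Egr2 (0.05), Cd40lg (−0.02), Tnfrsf4 (−0.21) and Tnfrsf9 (0.03). A p above the threshold does not show that these levels were equal. Il2 measured 5.11, 5.71 and 5.37 (transient) and 4.27, 4.32 and 4.51 (persistent) and fell with the block (−1.03, adjusted p = 0.00218), its persistent arrays lying under the median probe set in replicates 1 and 2. Of 36 interferon-stimulated genes 3 fell (8.33%) and 1 rose (2.78%) with the block, near the 5.44% and 5.99% of all genes. Of 16 regulatory T cell genes 4 fell and 2 rose with it, and of 8 GIMAP genes none passed in either model.

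The same change of antigen duration was also measured with anti-CD40, in 2 transient and 3 persistent arrays that share none with the PBS comparison. Without the block 1 gene passed there (0.0055%), and with it 14 did (0.0769%). The 1 gene was Dsp, the desmosome protein desmoplakin, named after its value was seen, with 3.38 (adjusted p = 0.0335) under anti-CD40 and 2.24 (adjusted p = 0.0150) with PBS. The difference between the treatments was tested as an interaction. Without the block 0 genes passed in limma (0%), 628 had an unadjusted p under 0.05, and the smallest adjusted p was 0.389. With the block 326 passed (1.79%), of which 276 had a more positive duration effect with PBS (1.52%) and 50 a more negative one (0.275%). That count was 31 without transient anti-CD40 replicate 1, 37 without persistent PBS replicate 3 and 48 without persistent anti-CD40 replicate 1. It was 137 without persistent PBS replicate 1, 148 without transient PBS replicate 3, 171 without transient PBS replicate 2, 214 without persistent anti-CD40 replicate 3 and 217 without transient PBS replicate 1.

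Replication and mitosis genes were among those that passed in the interaction with the block. Of 55 replication genes 34 passed there and of 64 mitotic genes 35, all more positive with PBS, against 1.52% of all genes. Of 32 naive genes 4 passed, all more negative, against 0.275% of all genes. Without the block 0 passed in each list. The list counts in the interaction were not repeated with an array left out, although the count over all genes then fell widely. The mean level of the replication list, as log2 deviation from each gene's mean over the 16 arrays, was −0.31, −1.06 and −0.90 under transient and 1.07, 0.30 and 0.66 under persistent antigen with PBS. With anti-CD40 it was 1.14 and 0.45 under transient and 1.02, 0.83 and 0.85 under persistent antigen. With anti-CD40, transient replicate 1 lay above the 3 persistent arrays and replicate 2 below them, while the transient PBS arrays stayed near those without antigen (−0.48, −1.22 and −0.84). For the mitosis list the transient PBS arrays (−0.02, −0.81 and −1.09) lay above the no-antigen arrays (−0.84, −1.75 and −1.43) in every replicate. The median duration difference of the replication list was 0.12 with anti-CD40, and that of the mitosis list 0.18.

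**Figure D4:**
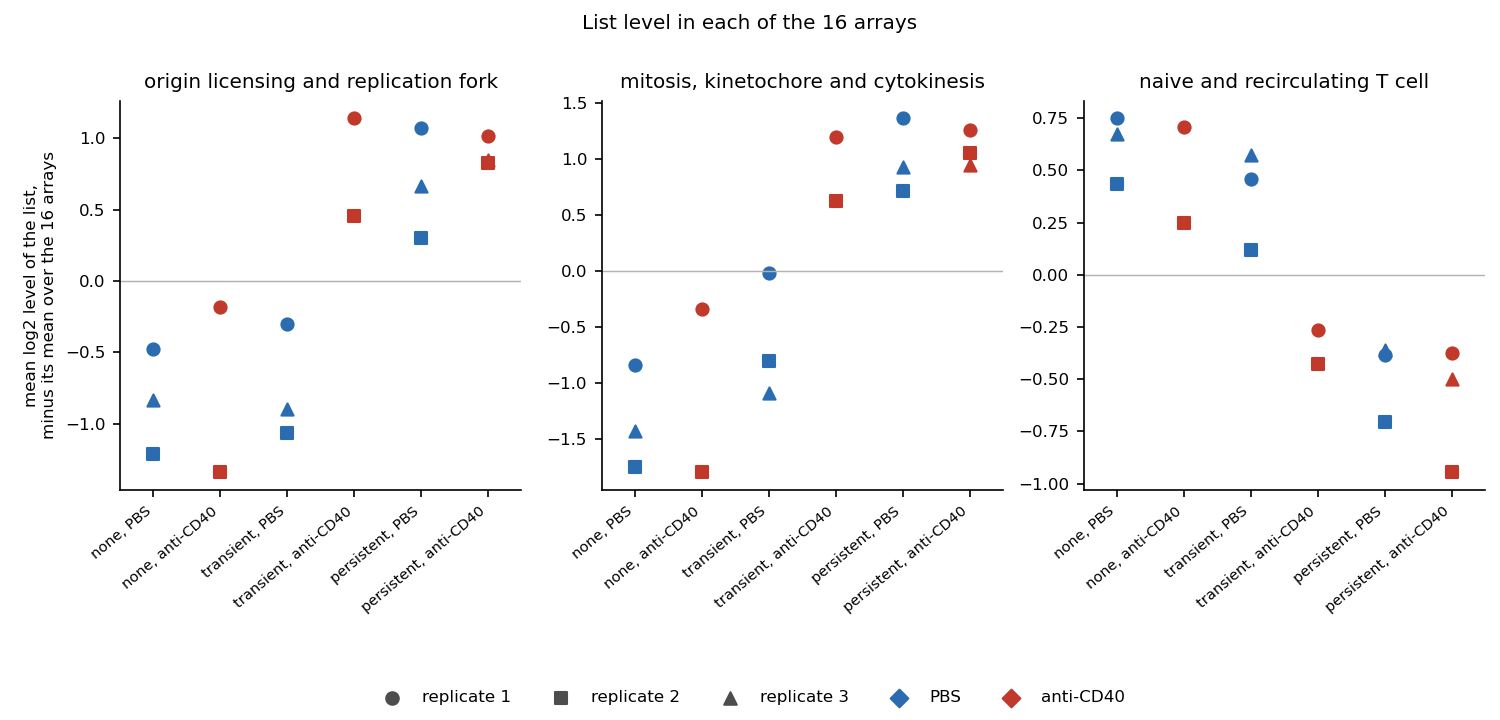
Mean level of the replication, mitosis and naive T cell lists in each of the 16 arrays, as log2 deviation from each gene's mean over all arrays, by group; points are arrays, shapes mark replicate numbers and colours the treatment. With PBS the replication level is −1.06 to −0.31 in the transient and 0.30 to 1.07 in the persistent arrays.

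Gzmb measured 8.98 and 7.15 in the transient and 9.32, 7.72 and 9.29 in the persistent arrays with anti-CD40, so its transient level was already high. In the model with the block its duration effect was 4.41 larger with PBS (SE 0.44, adjusted p = 5.30e-05). In the model without the block the interaction did not pass for Gzmb (adjusted p = 0.806). Bach2 measured 8.03 and 8.51 (transient) and 7.96, 7.59 and 7.92 (persistent) with anti-CD40, and its duration effect was −1.36 apart (adjusted p = 0.0119 with the block). Tox2 measured 8.32 and 8.58 in the transient and 10.90, 10.10 and 11.46 in the persistent arrays with anti-CD40, with no overlap. Its duration effect passed with the block there too, and the interaction did not pass (adjusted p = 0.183 with the block). Plek, Ikzf3, Pou2af1, Nt5e and Tdrp also passed under anti-CD40 with the block in the direction they had with PBS.

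**Figure D5:**
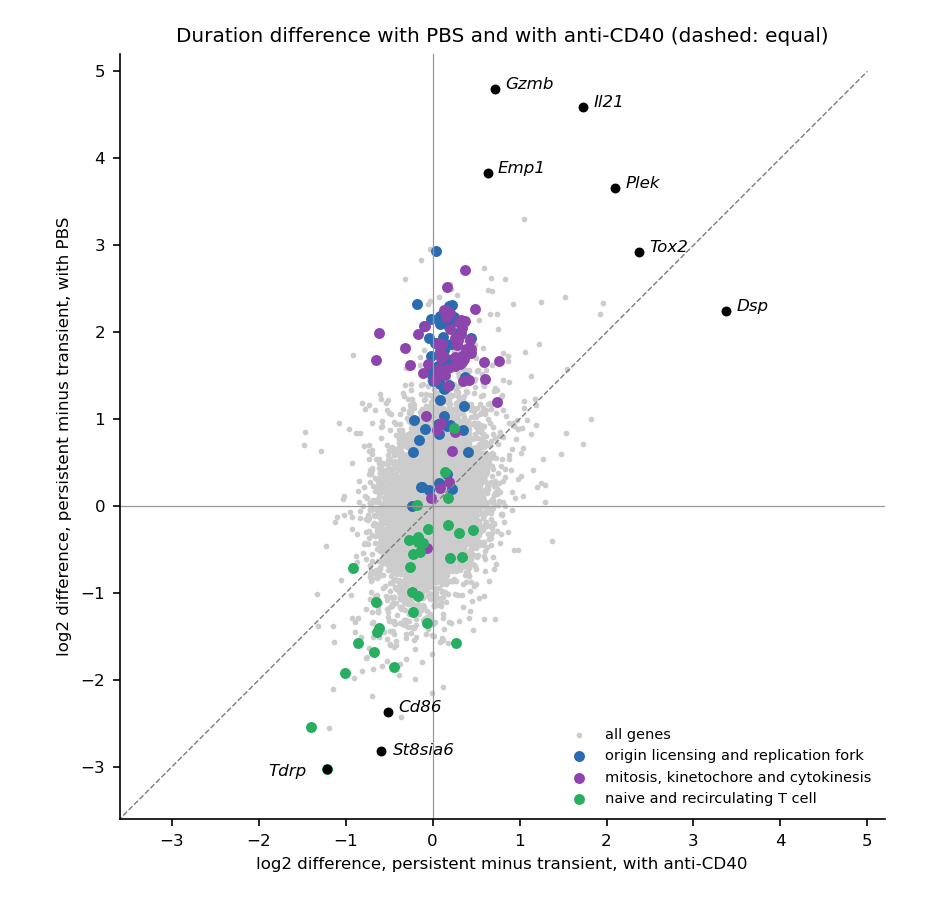
Log2 difference, persistent minus transient, of every gene with anti-CD40 (horizontal axis) and with PBS (vertical axis); colours mark 3 lists, black points 9 labelled genes, and the dashed line equal differences. In these differences without the block Gzmb lies at 4.8 with PBS and 0.72 with anti-CD40, and Tox2 at 2.92 and 2.38.

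Where a gene had several probe sets, the one with the highest mean was used. Of 177 named genes that passed in either model 103 had further probe sets, and in 17 at least 1 of these had a difference of opposite sign. Those 17 are Emp1, Tox2, Vipr1, Plcg1, Ikzf3, Ndrg1, Nt5e, Maf, Lif, Ahr, Brca1, Ndufab1, Abca1, Cyp51, Hspa14, Bcl6 and Cd44. A difference of the same sign could be much smaller. Further probe sets gave 0.89 for Il21 (4.59 in the one used) and at most 0.54 for Anxa2 (2.21). They gave 0.29 for Dscc1 (2.83) and 0.24 for Clspn (2.17). The sizes quoted for these genes thus rest on 1 probe set each. In Rfc4 (2.06 against 2.17) and Ccna2 (2.32 against 2.17) the sizes were close. Genes of either kind were not counted.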

How the data were processed

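RNA of sorted T cells was amplified in 2 rounds and hybridised to 16 Affymetrix mouse arrays. The authors deposited linear intensities of 45101 probe sets. Per the submitters' processing notes RMA was the tool, and its version is not given in the sources used here. Values were taken as log2(intensity + 1), with 1 probe set per gene, the one with the highest mean over the 16 arrays, for 18194 genes. Means of 6 groups were fitted in limma 3.58.1 (R 4.3.3, lmFit, contrasts.fit, eBayes with trend), and p-values were adjusted by Benjamini-Hochberg over all genes with a threshold of 0.05. The procedure was run on simulated data to check the fitted sizes of added differences. That check does not bear on the counts of genes called. Array number limits the precision.

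The replicate number was used as a block in an alternative model. The labels do not say that replicate numbers pair arrays. Each array also carries a running number, which is consecutive within replicate 1, within replicate 3 and among the antigen arrays of replicate 2. The replicate 2 arrays without antigen stand in a separate run. These running numbers were not used, and what they mark was not examined. The pairing was read from the data. Deviations from group means of same-numbered arrays correlated at 0.48 to 0.81 in all 36 pairs (median 0.68). Differently numbered pairs, 70 in all, stood at −0.81 to 0.60 (median −0.53). Deviations cancel within a group, which by itself pushes such pairs toward negative values. Between the compared groups, transient replicate 3 with persistent replicate 1 stood at 0.38, and transient replicate 1 with persistent replicate 3 at 0.19. Pairs there of replicate 2 with another number stood at −0.67 to −0.53.

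Named genes included the 15 largest changes in each direction that passed. Up to 5 members of each list were named, passing without the block or else with it. Named too were 28 set genes, of which 27 were measured. The interactions with the smallest p gave 6 genes in each direction with the block and 5 genes without it. Genes and 38 process and 9 marker lists were chosen with earlier results of these data known. Alternatives are listed in the closing section. Promoter sequences come from RefSeq (GRCm38.p6), and coordinates refer to that build.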

Additional observations from a re-analysis of the deposited data

Results flagged for a closer look

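The effect of antigen duration differed between PBS and anti-CD40 in 326 genes by the interaction in limma with the replicate block. None passed without the block. The 12 genes given here are the 6 of each sign with the smallest p, after clone names and receptor segments were left out. The duration difference was more positive with PBS by 4.41 for Gzmb (adjusted p = 5.30e-05), 3.37 for Emp1 (adjusted p = 0.00120), 3.07 for Dscc1 (adjusted p = 3.89e-05), 2.59 for S100a4 (adjusted p = 2.45e-04), 2.03 for Cdt1 (adjusted p = 0.00272) and 1.83 for Ttk (adjusted p = 0.00297). It was more negative with PBS for St8sia6 (−2.18, adjusted p = 0.00558), Ephx1 (−1.91, adjusted p = 0.00906), Tdrp (−1.72, adjusted p = 0.0115), Fam214a (−1.55, adjusted p = 0.00873), Hbp1 (−1.48, adjusted p = 0.00367) and Bach2 (−1.36, adjusted p = 0.0119). In Gzmb the transient arrays with anti-CD40 (8.98 and 7.15) lay above all 3 transient arrays with PBS (4.51, 4.14 and 4.71). In Bach2 they lay below them (8.03 and 8.51 against 9.81, 9.87 and 10.03).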

How the results depend on the processing

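The 169 genes called with PBS became 2080 with the replicate block (1090 higher and 990 lower), 363 after cyclic loess (259 and 104), 3935 with array weights (1625 and 2310) and 12 when the compared groups were fitted alone. They became 589 with replicates 1 and 3 only, a choice made after seeing the data. Of the 169, between 139 and 163 were also called without intensity trend, without dim genes, with the mean of probe sets or with a pseudocount of 16, each of which gave 180 to 246 calls. Leaving out an array gave 37 to 161 calls, and 1264 to 1638 with the block. The anti-CD40 comparison went from 1 call to 14 with the block, 3 with replicates 1 and 3 only (39 with the block), 2 with the mean of probe sets, and 0 in the compared groups alone, without trend, without dim genes, with a pseudocount of 16 or with array weights. Leaving out an array gave 0 calls there, and 3 to 7 with the block. The interaction had 0 calls, and it had 326 with the block, 5 with array weights and 35 with replicates 1 and 3 only. With the block it had 523 in the compared groups alone and 900 with replicates 1 and 3 only. Leaving out an array gave 0 to 2, and 31 to 449 with the block. The cause of these shifts was not tested. No named gene changed direction between an alternative and the model it was set against where it passed in either. Changes of direction in genes that passed in neither were not counted. With the block 117 of 189 named genes came past the threshold and none lost its call. List members that passed only with the block were among those chosen for naming, so this gain was in part set by the choice. Of 38 list medians 4 changed sign after cyclic loess and 1 with the mean of probe sets. The median difference of all genes was −0.05 and after cyclic loess −0.0021. With 3 arrays a group, and 2 with transient antigen and anti-CD40, a p above the threshold does not show equal levels, and for genes under the median probe set a fold is limited by background.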
